A study of Mus musculus with 2 samples.

Results

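The IL-6 and oncostatin M signalling genes were studied as the 9 genes, of 31053 in each count matrix, whose symbols are *Il6*, *Il11*, *Lif*, *Osm*, *Il6ra*, *Il6st*, *Osmr*, *Lifr* and *Socs3*. Counts came from 2 single-cell RNA libraries of back skin wounds of C57BL/6 mice 7 to 9 weeks old, taken with a 10 mm punch on day 5, with 1 library per condition and live cells of 3 pooled mice in each. By the labels all mice carried *Mrc1-DTR*, in which the *Mrc1* promoter, that of the CD206 gene, drives the receptor for diphtheria toxin, and received PBS (here called control) or diphtheria toxin (here called *Mrc1-DTR*), which kills cells that display the receptor. The paper describes its controls as wild-type mice given the toxin. An effect of the toxin itself and an effect of the transgene thus cannot be told apart from any loss of CD206+ cells. The paper's text also assigns the numbers of cells to the groups the other way round from the labelled matrices, and the labels were followed here.

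Cytokines of the IL-6 family signal through gp130, the shared receptor chain encoded by *Il6st*. IL-6 reaches gp130 through the IL-6 receptor (*Il6ra*), which can also be shed as a soluble form, IL-11 through its own alpha chain, leukaemia inhibitory factor through *Lifr*, and mouse oncostatin M mainly through *Osmr*. The receptors activate JAK kinases and STAT3, and STAT3 induces *Socs3*, which binds gp130 and the kinases and limits the signal. In skin, oncostatin M is a product of myeloid and T cells that acts on keratinocytes and fibroblasts, and IL-6 is known as a wound cytokine of stromal and immune cells.

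The control library held 12058 cell barcodes with 105511870 unique molecular identifiers (UMIs, which count RNA molecules) and the *Mrc1-DTR* library 11031 with 81858751. Cells under 500 genes or over 6% mitochondrial UMIs were left out and doublets removed, which left 7944 and 6613 cells with a median of 9579.5 and 7286 UMIs. The libraries shared 37 barcodes, 13 of them among the cells kept. Clusters were named from marker genes, without using the 9 genes, and 15 of 16 macrophage, 15 of 16 neutrophil, 14 of 15 pericyte and 16 of 16 endothelial markers were raised in the cluster of that name. Fewer were raised for dendritic-like cells, 13 of 18, and for Langerhans-like cells, 7 of 12. Macrophage-like cells made up 23.0% of control and 68.6% of *Mrc1-DTR* cells, fibroblast-like cells 38.6% and 9.93%, and epithelial-like cells 26.0% and 3.55%. Levels are CPM, the UMIs of a gene scaled to a fixed total for its cell class, and log2 ratios are *Mrc1-DTR* over control after adding 1 CPM. With 1 library per condition no test was possible, and the 95% intervals in parentheses cover counting error only. Because reads come from the 3′ end and are not scaled to transcript length, levels are compared between cell classes and libraries, not between genes. *Mrc1* itself had 4515 UMIs or 489.6 CPM (475 to 504) in control and 13582 UMIs or 429 CPM (422 to 436) in *Mrc1-DTR* macrophage-like cells, and its thinned share of cells, as defined below, was 51.7% and 43.4%. In epithelial-like cells that share was 0.787% and 1.75%. Before thinning, 1318 control and 2971 *Mrc1-DTR* macrophage-like cells had an *Mrc1* UMI, so these libraries do not show fewer such cells after toxin. These are numbers of captured cells, not of cells per wound.

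Over all cells kept, *Osm* was at 42.5 CPM in control and 363 CPM in *Mrc1-DTR* wounds, and *Socs3* at 114 and 217 CPM. *Il6*, at 172 and 171 CPM, and *Il11*, at 25.3 and 25.8 CPM, were at nearly equal levels, whereas *Lif* (80.3 and 46.2 CPM), *Osmr* (150.0 and 66.7 CPM) and *Il6st* (129 and 78.7 CPM) were lower in *Mrc1-DTR*. *Il6ra* was at 32.2 and 45.4 CPM and *Lifr* at 27.7 and 38.6 CPM. These totals follow both the make-up of the libraries and the level within each class, which are given separately in what follows.

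*Osm* came mostly from macrophage-like cells, which gave 85.3% of its UMIs in control and 92.4% in *Mrc1-DTR* wounds. Dendritic-like cells gave 5.18% and 2.54%, mast-like cells 3.10% and 0.316%, and neutrophil-like cells 1.82% and 2.83%. Within macrophage-like cells *Osm* was at 319 CPM (2946 UMIs in 1829 cells) in control and 581 CPM (18393 UMIs in 4539 cells) in *Mrc1-DTR* wounds, a log2 ratio of 0.86 (0.80 to 0.92). Both the number of macrophage-like cells and the *Osm* level in them were thus higher in the *Mrc1-DTR* library.

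**Figure D1:**
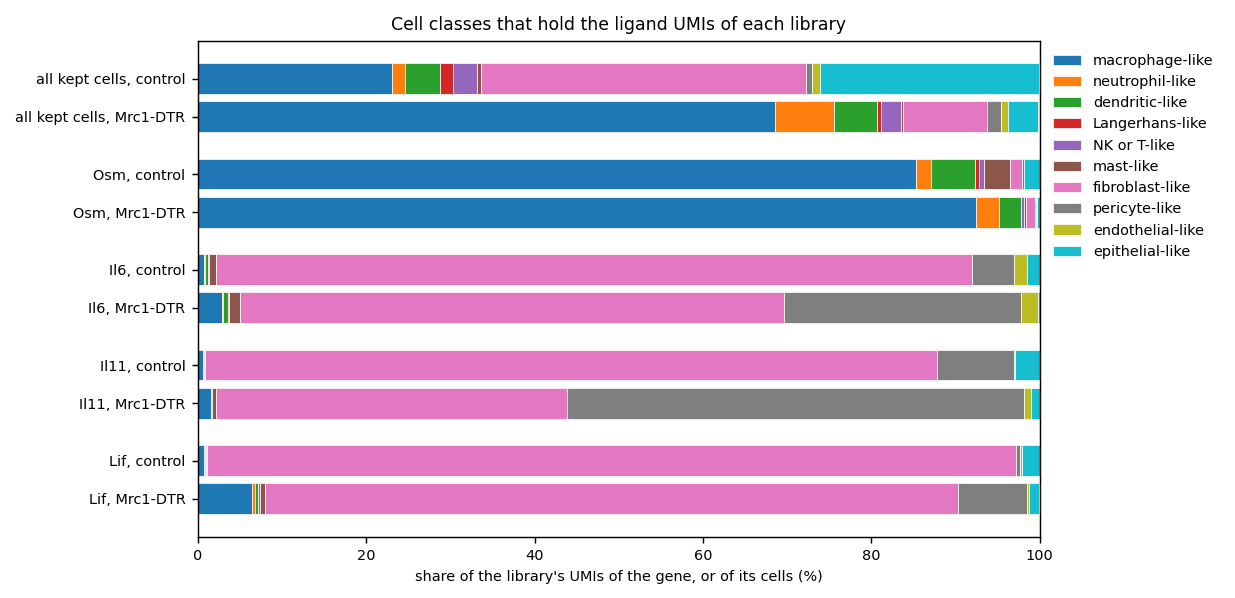
Share of the cells kept (top pair of bars) and of the UMIs of each cytokine gene (horizontal axis, percent of the library) that came from each cell class, as stacked bars for the control and the Mrc1-DTR library. Osm is mostly macrophage-like in both (85.3% and 92.4%), and the pericyte-like part of Il6 is 4.97% in control and 28.1% in Mrc1-DTR.

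Because macrophage-like cells held a median of 4828 UMIs in control and 6776 in *Mrc1-DTR*, shares of cells were taken after drawing 2000 UMIs from every cell and leaving out shallower cells. On this scale *Osm* was found in 41.0% (38.5% to 43.4%) of the 1604 control macrophage-like cells and in 57.6% (56.1% to 59.0%) of the 4399 from *Mrc1-DTR* wounds, and before thinning these shares were 60.3% and 81.9%. In epithelial-like cells, taken as a class that should lack *Osm*, the thinned shares were 0.541% and 3.06%, with medians of 12592 and 16070 UMIs per cell. The 10% of macrophage-like cells with the most *Osm* held 41.7% of its UMIs in control and 36.0% in *Mrc1-DTR*, so the gene was spread over many cells. The 10 genes of the neutrophil list, at 854 and 1419 CPM in macrophage-like cells, could bring in 1.93% and 1.29% of the *Osm* UMIs seen there if they came as free RNA from neutrophil-like cells.

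The mast-like cells, 34 in control and 18 in *Mrc1-DTR*, had *Osm* at 573 CPM (469.7 to 693) and 446 CPM (342 to 570.3), from 107 and 63 UMIs, with a log2 ratio whose interval held 0. Neutrophil-like cells had 326 CPM (63 UMIs, 129 cells) and 504 CPM (563 UMIs, 457 cells), a log2 ratio of 0.63 (0.25 to 1.02), but their median depth was only 1229 and 1908 UMIs. In the mast-like cluster 12 of 12 mast markers were raised, but beside *Mcpt4* and *Cma1* its leading genes included *Mcpt8* and *Prss34*, genes of basophils. Which of these cells held the *Osm* UMIs was not tested. In the order of classes, mast-like cells stood above the others in control, while the intervals of neutrophil- and macrophage-like cells overlapped. In *Mrc1-DTR* wounds macrophage-like cells came first, apart from neutrophil-like cells, whose interval overlapped with that of mast-like cells. Dendritic-like cells were at 54.7 and 125 CPM, with a ratio of 1.18 (0.94 to 1.43), and NK or T-like cells at 12.3 and 42.3 CPM, 1.71 (0.99 to 2.45). *Osm* in these last classes stood beside macrophage RNA: 9 macrophage genes (a list of 10 without *Apoe*, left out after its level in other classes was seen) would, at the ratio found in macrophage-like cells, bring 410.4 of the 505 *Osm* UMIs of *Mrc1-DTR* dendritic-like cells and 324 of the 563 of neutrophil-like cells. They would bring 19.0 of the 60 of NK or T-like and 3.96 of the 63 of mast-like cells. These estimates are for the *Mrc1-DTR* library only and take all RNA of the list as free, also any made by the cells themselves. The part of such RNA in the ratios was not tested.

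*Osm* also passed 2-fold in fibroblast-like cells, at 1.46 CPM (51 UMIs) in control and 20.3 CPM (197 UMIs) in *Mrc1-DTR*, and in epithelial-like cells, at 2.25 CPM (64 UMIs) and 16.2 CPM (63 UMIs). Of the 197 UMIs, 168 (85.3%) lay in a subcluster of 45 cells led by *Cd74* and *Lyz2*, genes of macrophages and antigen-presenting cells, and 54 of the 63 epithelial UMIs (85.7%) lay in 1 subcluster of 16 cells. Without the mixed subclusters *Osm* was at 0.904 and 3.26 CPM in fibroblast-like cells, from 31 and 29 UMIs, a log2 ratio of 1.16 (0.66 to 1.63). In epithelial-like cells it was then at 0.843 and 2.74 CPM, from 23 and 9 UMIs. The 9 macrophage genes could bring 202 *Osm* UMIs to *Mrc1-DTR* fibroblast-like cells, where 197 were seen, and 82.5 in control, where 51 were seen. For epithelial-like cells they could bring 73.8 where 63 were seen and 36.1 where 64 were seen, so only the control epithelial-like count lay above this estimate.

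*Il6* was a stromal transcript. Fibroblast-like cells gave 89.8% of its UMIs in control and 64.7% in *Mrc1-DTR*, and pericyte-like cells, the contractile cells around small vessels, gave 4.97% and 28.1%, although they made up 0.768% and 1.71% of cells. In pericyte-like cells *Il6* was at 776 CPM (694 UMIs in 61 cells) in control and 1562 CPM (2632 UMIs in 113 cells) in *Mrc1-DTR*, a log2 ratio of 1.01 (0.89 to 1.13). In fibroblast-like cells it was at 358 CPM (12537 UMIs in 3065 cells) and 623 CPM (6058 UMIs in 657 cells), 0.80 (0.75 to 0.84). The nearly equal total over the library thus joined a smaller share of fibroblast-like cells, a larger share of pericyte-like cells and a higher level in both classes. Free fibroblast RNA, estimated the same way from 10 genes, could give 12.9% and 11.8% of the pericyte-like *Il6* UMIs.

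Mast-like cells, with basophil genes among their leading genes as given above, held *Il6* at 637 CPM (528 to 763) and 807 CPM (665 to 969). Their intervals overlapped with those of pericyte-like cells in control only. Endothelial-like cells followed at 215 and 250.3 CPM, with a log2 ratio whose interval held 0. Macrophage-like cells were at 11.2 CPM (103 UMIs) and 8.28 CPM (262 UMIs), a log2 ratio of -0.39 (-0.70 to -0.08), and free fibroblast RNA could account for 30.9% of the control UMIs there. Fibroblast RNA was at 963 and 203 CPM in these cells, and its part in the ratio was not tested. Thinned shares of fibroblast-like cells with *Il6* were 31.2% (29.5% to 32.9%) and 36.3% (32.6% to 40.1%), with intervals that just overlapped, against 0.913% and 3.31% of NK or T-like cells. The share for pericyte-like cells was 70.2% and 75.2%, with intervals that overlapped. *Il6* was concentrated: the 10% of fibroblast-like cells with the most held 56.2% and 57.6% of the UMIs of the class, and the highest single cell had 88 and 117.

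**Figure D2:**
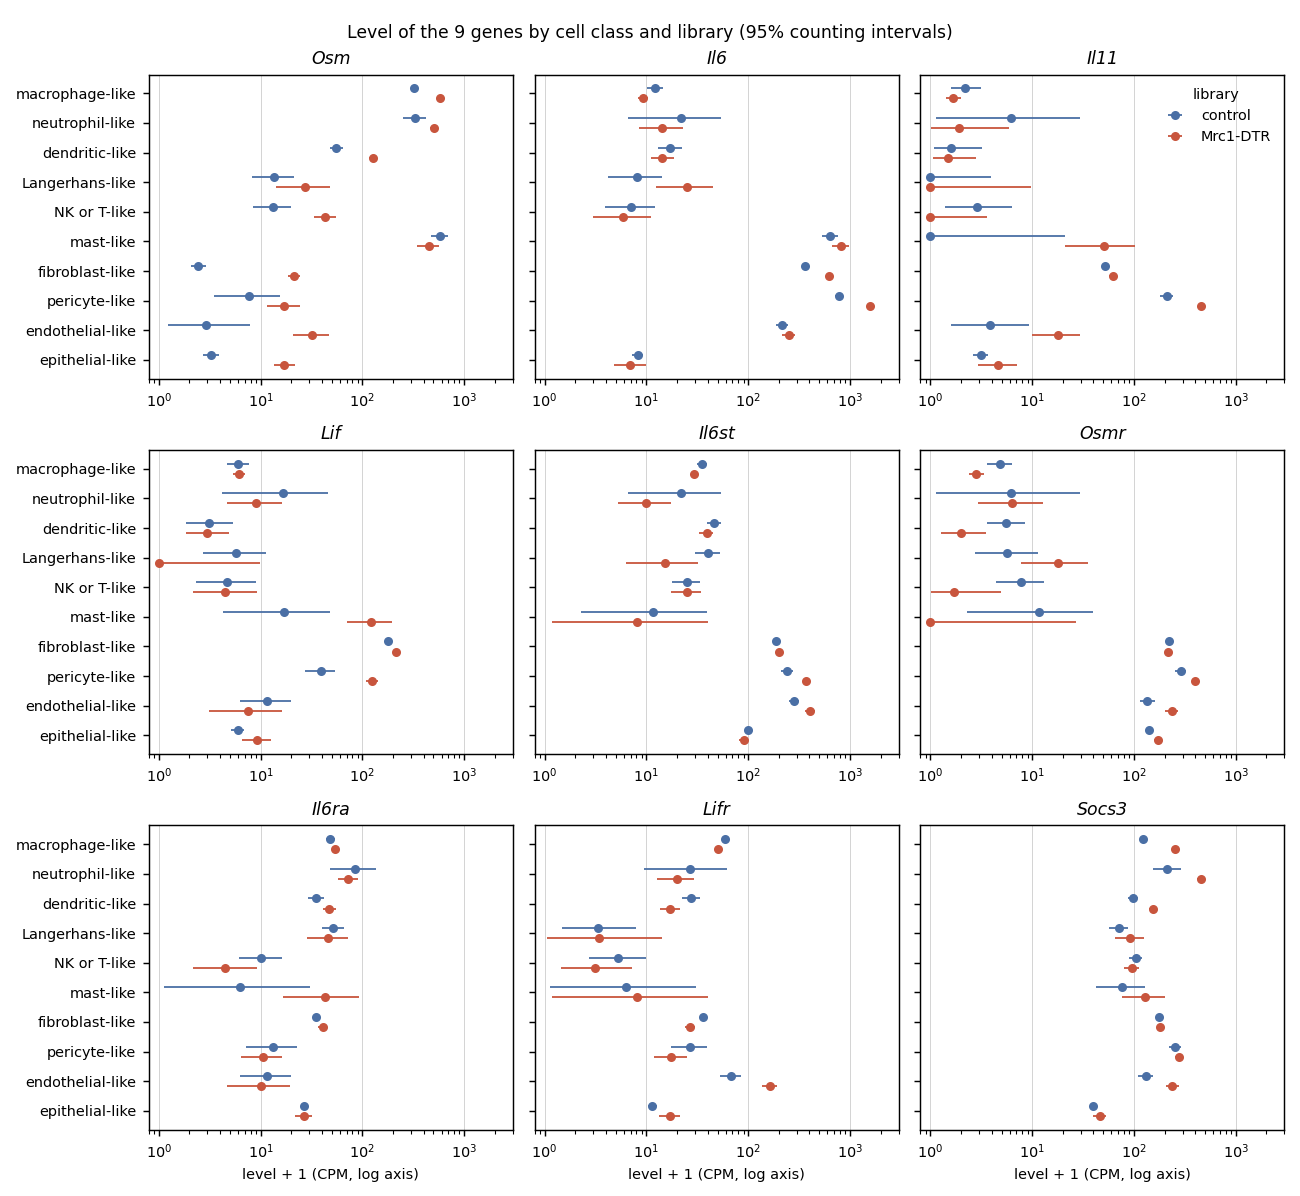
Level of each of the 9 genes in each cell class (horizontal axis, CPM + 1 on a log scale) in the control and the Mrc1-DTR library, with 95% Poisson intervals for counting error. In macrophage-like cells Osm lies at 319 and 581 CPM and Socs3 at 121 and 254 CPM, while Osmr in fibroblast-like cells lies at 221 and 213 CPM.

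*Il11*, a stromal cytokine tied to fibroblast activation, followed the same sources. Pericyte-like cells were highest, at 210.2 CPM (188 UMIs) in control and 456 CPM (768 UMIs) in *Mrc1-DTR*, a log2 ratio of 1.11 (0.88 to 1.35). The 10% of pericyte-like cells with the most *Il11* held 56.4% and 65.4% of these UMIs, and the highest single cell had 26 and 116. The interval does not cover this spread between the 61 and 113 cells. Fibroblast-like cells were at 51.1 CPM (1789 UMIs) and 60.6 CPM (589 UMIs), 0.24 (0.11 to 0.38), a value that was 0.02 with subclusters at control shares and -0.12 with at most 2000 genes per cell. Fibroblast-like cells gave 87.0% of the *Il11* UMIs in control and 41.6% in *Mrc1-DTR*, and pericyte-like cells 9.14% and 54.3%. Free fibroblast RNA could give 6.80% and 3.92% of the pericyte-like UMIs. Few fibroblast-like cells held it: the top 10% held 95.4% and 94.2% of the UMIs, and thinned shares were 5.10% and 5.85%. In pericyte-like cells the thinned shares were 21.1% (11.4% to 33.9%) and 34.9% (26.0% to 44.6%), which overlapped.

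*Lif*, which holds cells in immature states and acts on many tissues, was highest in fibroblast-like cells in both libraries, at 179 CPM (6264 UMIs) and 215 CPM (2089 UMIs), a log2 ratio of 0.26 (0.19 to 0.34). These cells gave 96.1% of its UMIs in control and 82.3% in *Mrc1-DTR*. Pericyte-like cells were at 38.0 CPM (34 UMIs) and 123 CPM (208 UMIs), 1.67 (1.16 to 2.23), and gave 0.521% and 8.20%. Free fibroblast RNA could by the same estimate give 132% of these UMIs in control and 51.4% in *Mrc1-DTR*. The 10 genes of that list were at 27988 and 21832 CPM in pericyte-like cells, against 963 and 203 CPM in macrophage-like cells. The estimate takes all of this RNA as free, and the part made by pericyte-like cells themselves was not tested. It therefore sets no background level for *Lif* in them. Thinned shares of fibroblast-like cells were 21.1% and 19.7% with overlapping intervals, against 1.12% and 0.864% in macrophage-like cells, taken as the class that should lack *Lif*. *Lif* and *Osm* are neighbours on chromosome 11 of GRCm38, *Osm* (ENSMUSG00000058755) from 4236420 to 4241026 and *Lif* (ENSMUSG00000034394) from 4257557 to 4272514, both on the plus strand and 16.5 kb apart with 0 protein-coding genes between them. Despite this position, macrophage-like cells gave most *Osm* UMIs, but 0.705% and 6.46% of the *Lif* UMIs.

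The 3 cytokine genes made by fibroblast-like cells share a letter pattern before their start sites that the choice of genes did not use. The RefSeq table holds promoters for 8 of the 9 genes, 10 in all. *Osm* has none there and was not searched, so the pattern cannot be compared between it and the other cytokine genes. The 250 bases before each start were searched for the AP-1 motif TGANTCA and the STAT motif TTCNNNGAA. Each motif reads the same on both strands. *Il6*, *Il11* (the second of its 2 starts) and *Lif* hold an AP-1 match, and *Socs3* holds a STAT match. Of all 32851 promoters in the table, 6.75% hold the first and 7.02% the second motif. These shares count promoters, whereas a gene here counts with a match at any of its starts, and the first start of *Il11* has none. The bases are shown because fibroblast- and pericyte-like cells gave most UMIs of these cytokines, and the *Il6* level was higher in *Mrc1-DTR* cells of both. A match describes letters and is not evidence of binding. The sequences below are GRCm38.p6, 5′ to 3′ on the strand of the gene, with the match in capitals, and stop before any annotated exon.
Il6, chr5:30012864-30013113, plus strand: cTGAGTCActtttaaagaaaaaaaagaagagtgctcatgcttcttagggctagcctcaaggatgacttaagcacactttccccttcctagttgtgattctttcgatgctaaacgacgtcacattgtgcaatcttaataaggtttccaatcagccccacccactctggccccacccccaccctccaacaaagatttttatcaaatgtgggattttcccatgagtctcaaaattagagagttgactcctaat
Il11, chr7:4778142-4778391, minus strand: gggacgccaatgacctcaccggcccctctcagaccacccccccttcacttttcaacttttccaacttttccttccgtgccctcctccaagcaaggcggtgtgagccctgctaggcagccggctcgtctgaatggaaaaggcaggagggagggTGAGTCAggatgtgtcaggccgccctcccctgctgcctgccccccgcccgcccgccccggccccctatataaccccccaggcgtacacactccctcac
Lif, chr11:4257318-4257556, plus strand: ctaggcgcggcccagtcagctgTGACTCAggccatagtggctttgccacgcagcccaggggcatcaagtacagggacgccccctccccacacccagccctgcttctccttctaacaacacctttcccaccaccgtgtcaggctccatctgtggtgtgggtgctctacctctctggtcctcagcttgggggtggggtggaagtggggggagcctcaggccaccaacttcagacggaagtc
The match begins 249 bases before the start site in *Il6*, 98 in *Il11* and 228 in *Lif*. In *Il6* it thus lies at the far edge of the 250 bases searched, and a slightly shorter search would miss it.

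Within fibroblast-like cells the cytokines had different main sources. The *Plac8*-like subcluster, named for its marker list, held 18.8% of control and 30.7% of *Mrc1-DTR* fibroblast-like cells but 48.4% and 65.7% of the *Il6* UMIs. *Il6* was at 759.8 CPM (6063 UMIs) and 1231 CPM (3982 UMIs) in it, a log2 ratio of 0.70 (0.64 to 0.75). In a small unnamed subcluster of 20 and 24 cells led by *Apod*, *Ccl11* and *Spp1*, *Il6* was at 1179.5 CPM (146 UMIs) and 2534 CPM (469 UMIs), 1.10 (0.83 to 1.38). The largest control subcluster, of 865 and 78 cells, was at 222 and 194 CPM, and 2 further ones were lower in *Mrc1-DTR*, at 161 and 124 CPM and at 332 and 242 CPM. With subclusters weighted in both libraries by their share of the control UMIs, *Il6* was at 353 and 450.0 CPM and its log2 ratio was 0.35.

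*Lif* was highest among the larger subclusters in that of 865 and 78 cells, at 404 CPM (3368 UMIs) and 377 CPM (405 UMIs), and was among its leading genes although it had been left out of the clustering. In the *Plac8*-like subcluster it was at 58.6 CPM (468 UMIs) and 202 CPM (652 UMIs), a log2 ratio of 1.76 (1.59 to 1.94). *Il11* was lower there, at 112 CPM (897 UMIs) and 74.8 CPM (242 UMIs), -0.58 (-0.79 to -0.38), and higher in the subcluster of 865 and 78 cells, at 17.4 and 36.3 CPM, 1.02 (0.49 to 1.52), and in that of 666 and 52 cells, at 18.9 and 54.2 CPM, 1.47 (0.93 to 1.98). At control shares of the subclusters *Il11* was at 51.0 and 51.9 CPM and its log2 ratio was 0.02. The 3 cytokines thus did not move as a block within fibroblast-like cells.

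**Figure D3:**
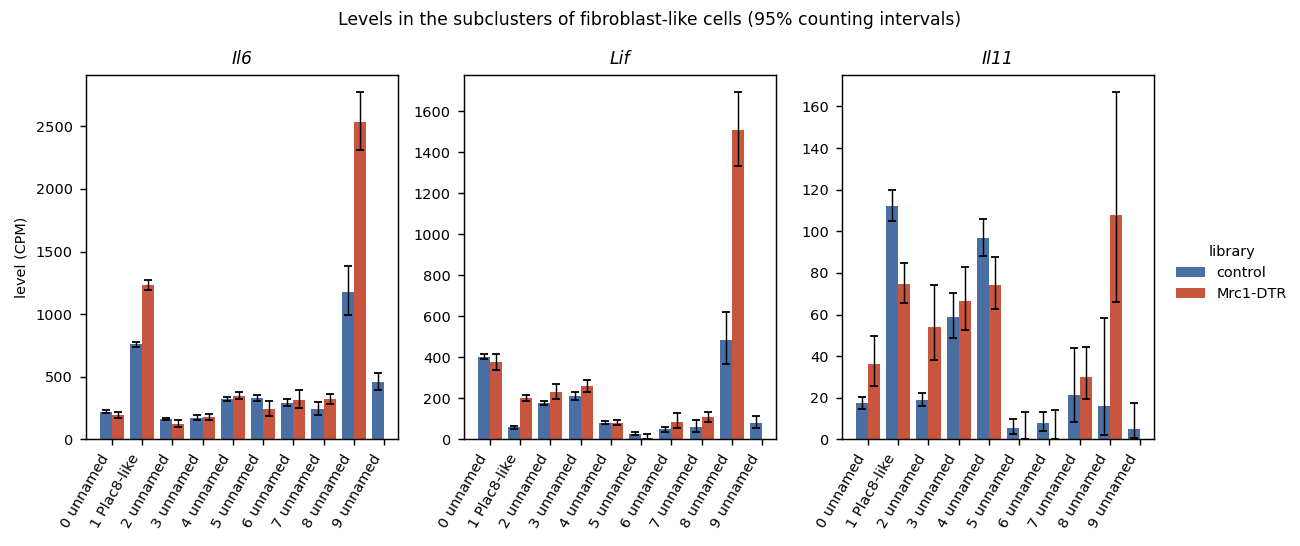
Level (vertical axis, CPM) of Il6, Lif and Il11 in each fibroblast-like subcluster in the control and the Mrc1-DTR library, with 95% Poisson intervals for counting error. Il6 in the Plac8-like subcluster lies at 759.8 and 1231 CPM and Il11 there at 112 and 74.8 CPM, and Il6 is highest in subcluster 8, led by Apod and Ccl11, at 1179.5 and 2534 CPM.

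Of the receptors, *Il6st* (ENSMUSG00000021756), which encodes gp130, was found in the classes of stroma, vessels and epithelium above all, and mast-like cells had 2 and 1 UMIs. Endothelial-like cells were at 284 CPM (298 UMIs) and 401 CPM (309 UMIs), a log2 ratio of 0.49 (0.26 to 0.73), and pericyte-like cells at 240.4 CPM (215 UMIs) and 370.2 CPM (624 UMIs), 0.62 (0.40 to 0.85). The intervals of these neighbours overlapped in both libraries. Fibroblast-like cells were at 187 CPM (6554 UMIs) and 198 CPM (1925 UMIs), 0.08 (0.01 to 0.15), and epithelial-like cells at 99.6 and 89.6 CPM with an interval that held 0. Macrophage-like cells were at 34.2 CPM (315 UMIs) and 28.7 CPM (910 UMIs), -0.24 (-0.42 to -0.06). Because of their number they gave 3.01% of the *Il6st* UMIs in control and 21.1% in *Mrc1-DTR*.

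*Osmr* (ENSMUSG00000022146), the specific chain for oncostatin M, was found mainly in the stromal, vascular and epithelial classes. Pericyte-like cells were at 288 CPM (258 UMIs) and 396 CPM (668 UMIs), a log2 ratio of 0.46 (0.25 to 0.67), and endothelial-like cells at 134 CPM (141 UMIs) and 235 CPM (181 UMIs), 0.80 (0.48 to 1.13). Fibroblast-like cells were at 221 CPM (7744 UMIs) and 213 CPM (2075 UMIs), -0.05 (-0.12 to 0.02), so that a difference beyond counting error was not seen. Epithelial-like cells, the keratinocytes of the wound among them, were at 139.6 CPM (3974 UMIs) and 170.0 CPM (660 UMIs), 0.28 (0.16 to 0.40). Macrophage-like cells, the main source of *Osm*, were at 3.80 CPM (35 UMIs) and 1.83 CPM (58 UMIs), of which free fibroblast RNA could give 56.1% and 31.9% and free keratinocyte RNA 46.8% and 37.7%. Fibroblast-like cells gave 63.5% and 56.7% of the *Osmr* UMIs, epithelial-like cells 32.6% and 18.0%, and pericyte-like cells 2.12% and 18.3%.

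Thinned shares of cells with *Osmr* were 33.4% (31.7% to 35.1%) and 33.7% (30.1% to 37.5%) in fibroblast-like, 23.9% and 30.1% in epithelial-like and 24.3% (14.8% to 36.0%) and 51.9% (37.6% to 66.0%) in endothelial-like cells. In NK or T-like cells, taken as the class without *Osmr*, none of 219 control and none of 151 *Mrc1-DTR* cells had a UMI after thinning, which limits only the share of cells with a UMI at that depth, to 1.67% and 2.41% by the exact interval. Before thinning 8 of 225 (3.56%) and 1 of 151 (0.662%) had one. Within epithelial-like cells *Osmr* was highest in the follicle-like subcluster, at 190.3 CPM (1179 UMIs) and 219 CPM (287 UMIs). Basal-like keratinocytes were at 113 CPM (601 UMIs in 431 cells) and 175 CPM (41 UMIs in only 16 cells), a log2 ratio of 0.63 (0.14 to 1.09). Spinous-like cells were at 126 and 128 CPM.

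A cell can receive oncostatin M through *Osmr* with *Il6st*, and in fibroblast-like cells both were found together in 64.6% (62.8% to 66.3%) in control wounds and 74.9% (71.4% to 78.2%) after toxin. The product of the shares of the single genes was 62.0% and 72.5%. Pericyte-like cells had both in 85.2% and 85.8%, endothelial-like cells in 60.3% and 81.8%, epithelial-like cells in 48.6% and 57.9%, and macrophage-like cells in 0.273% and 0.220%. These values rise with depth, and after thinning fibroblast-like cells had both in 10.8% (9.70% to 12.0%) and 12.2% (9.74% to 14.9%). *Osm* and its receptor pair were thus found in different classes.

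*Il6ra* (ENSMUSG00000027947) was spread more evenly. Neutrophil-like cells were at 82.8 CPM (16 UMIs) and 71.6 CPM (80 UMIs), macrophage-like cells at 47.6 CPM (439 UMIs) and 53.3 CPM (1686 UMIs), 0.16 (0.01 to 0.31), and dendritic-like cells at 34.2 and 46.5 CPM, 0.43 (0.09 to 0.77). Fibroblast-like cells, which had been chosen as a class without the gene, were at 34.4 CPM (1204 UMIs) and 39.7 CPM (386 UMIs) and held it in 6.74% and 8.77% of thinned cells, so they gave no background level. Epithelial-like cells were at 25.9 and 25.8 CPM, and NK or T-like cells were lowest in *Mrc1-DTR*, at 9.21 and 3.53 CPM. Macrophage-like cells gave 16.8% of the *Il6ra* UMIs in control and 67.7% in *Mrc1-DTR* wounds. *Il6ra* with *Il6st* was found in 3.39% and 5.33% of macrophage-like and in 22.9% and 31.7% of fibroblast-like cells before thinning, and in 0.623% and 0.568% and in 2.28% and 3.38% after it.

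*Lifr* (ENSMUSG00000054263), the receptor for leukaemia inhibitory factor, lies beside *Osmr* on chromosome 15 of GRCm38, 216 kb from it with 0 protein-coding genes between, *Osmr* from 6813577 to 6874969 and *Lifr* from 7090614 to 7197489. Endothelial-like cells were highest, at 66.8 CPM (70 UMIs) and 162 CPM (125 UMIs), a log2 ratio of 1.27 (0.84 to 1.70), and in control their interval overlapped with that of macrophage-like cells, the next in order. Unlike *Osmr*, it was present in macrophage-like cells, at 58.7 CPM (541 UMIs) and 49.2 CPM (1559 UMIs), -0.25 (-0.39 to -0.11), where free fibroblast RNA could account for at most 0.570% of the UMIs. At control shares of the subclusters the macrophage-like levels were 58.7 and 60.4 CPM, a log2 ratio of 0.04. Fibroblast-like cells were at 34.7 and 25.9 CPM, -0.41 (-0.60 to -0.22), and epithelial-like cells at 10.4 and 16.0 CPM, 0.57 (0.18 to 0.95). Without the mixed subclusters the epithelial-like ratio was 0.37, with an interval that held 0 (-0.11 to 0.82). Macrophage-like cells gave 24.0% of the *Lifr* UMIs in control and 73.6% in *Mrc1-DTR*.

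*Socs3* (ENSMUSG00000053113), the inhibitor and target of the pathway, was higher in macrophage-, neutrophil-, dendritic- and endothelial-like cells of the *Mrc1-DTR* library. In Langerhans-like cells, at 0.37 (-0.21 to 0.93), and mast-like cells, at 0.76 (-0.32 to 1.86), the interval of the log2 ratio held 0. Macrophage-like cells were at 121 CPM (1114 UMIs) and 254 CPM (8030 UMIs), a log2 ratio of 1.06 (0.97 to 1.16), and neutrophil-like cells at 212 CPM (41 UMIs) and 453 CPM (506 UMIs), 1.09 (0.63 to 1.58). Endothelial-like cells were at 129 CPM (135 UMIs) and 237 CPM (183 UMIs), 0.88 (0.55 to 1.21), and dendritic-like cells at 96.6 and 152 CPM, 0.65 (0.45 to 0.85). In fibroblast-like cells the levels were 174 CPM (6101 UMIs) and 181 CPM (1763 UMIs), 0.06 (-0.02 to 0.13), in pericyte-like cells 254 and 273 CPM, and in epithelial-like cells 38.5 and 45.1 CPM, all with intervals that held 0. In control the highest levels, of pericyte- and neutrophil-like cells, overlapped, and in *Mrc1-DTR* neutrophil-like cells stood above the overlapping pericyte-, macrophage- and endothelial-like cells. Of the *Socs3* UMIs, fibroblast-like cells gave 65.6% in control and 14.8% in *Mrc1-DTR*, and macrophage-like cells 12.0% and 67.4%.

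The higher *Socs3* of macrophage-like cells was also seen in the thinned share of cells, at 19.8% (17.8% to 21.8%) in control wounds and 34.5% (33.1% to 35.9%) after toxin. The 6 genes listed for the immediate early and heat shock response (*Klf2*, *Nr4a1*, *Fosb*, *Egr1*, *Hspa1a* and *Jun*), which warm digestion can raise, were together at 842 CPM (823 to 861) and 755 CPM (746 to 765) in macrophage-like cells, lower in *Mrc1-DTR*. In dendritic-like cells these genes were at 534 and 797 CPM, higher in *Mrc1-DTR* like *Socs3*. They were at 2117 and 2089 CPM in neutrophil-like and at 1529.7 and 1428 CPM in endothelial-like cells. The part of these genes' response in the *Socs3* results was not tested in any class. The STAT match in the 250 bases before the start of *Socs3* is shown in capitals, on GRCm38.p6 and the strand of the gene.
Socs3, chr11:117969452-117969616, minus strand: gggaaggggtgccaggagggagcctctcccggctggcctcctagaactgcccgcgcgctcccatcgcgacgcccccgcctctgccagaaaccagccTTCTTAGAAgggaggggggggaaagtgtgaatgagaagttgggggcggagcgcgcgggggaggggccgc
It begins 154 bases before the start site.

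Macrophage-like cells of the 2 libraries lay mostly in different subclusters. An unnamed one led by *Ccl8* and complement C1q genes held 1389 of 1829 control and 1306 of 4539 *Mrc1-DTR* cells, a *Vcan*-like one (a marker of monocytes) held 103 and 1747, and a *Cd9*-like one led by *Arg1* held 7 and 1061. *Osm* was at 343 CPM (2242 UMIs) and 607 CPM (4690 UMIs) in the first, a log2 ratio of 0.82 (0.75 to 0.89), and at 319 CPM (200 UMIs) and 643 CPM (8509 UMIs) in the second, 1.01 (0.81 to 1.22). In the *Cd9*-like cells it was at 399.9 CPM, from 15 UMIs only, and 517 CPM, with an interval that held 0. The MHC class II-like, *Klf2*-like and *Ifit1*-like subclusters were at 226 and 341, 258 and 557, and 305 and 498 CPM. *Osm* was thus higher in *Mrc1-DTR* in each of the 6 subclusters, with an interval above 0 in 5.

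*Socs3* had the same pattern, higher in each of the 6 and with an interval above 0 in 5. It was at 109.7 CPM (717 UMIs) and 182 CPM (1405 UMIs) in the *Ccl8* subcluster, 0.72 (0.59 to 0.85), and at 148 CPM (93 UMIs) and 283 CPM (3746 UMIs) in the *Vcan*-like one, 0.93 (0.63 to 1.24). When subclusters were weighted by their share of the control UMIs, *Osm* in macrophage-like cells was at 319 and 561 CPM, a log2 ratio of 0.81, and *Socs3* at 121 and 208 CPM, 0.78. *Lifr* differed between subclusters in sign, at 52.3 and 64.4 CPM in the *Ccl8* subcluster, 0.30 (0.10 to 0.49), and at 88.3 and 55.1 CPM in MHC class II-like cells, -0.67 (-1.04 to -0.30).

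**Figure D4:**
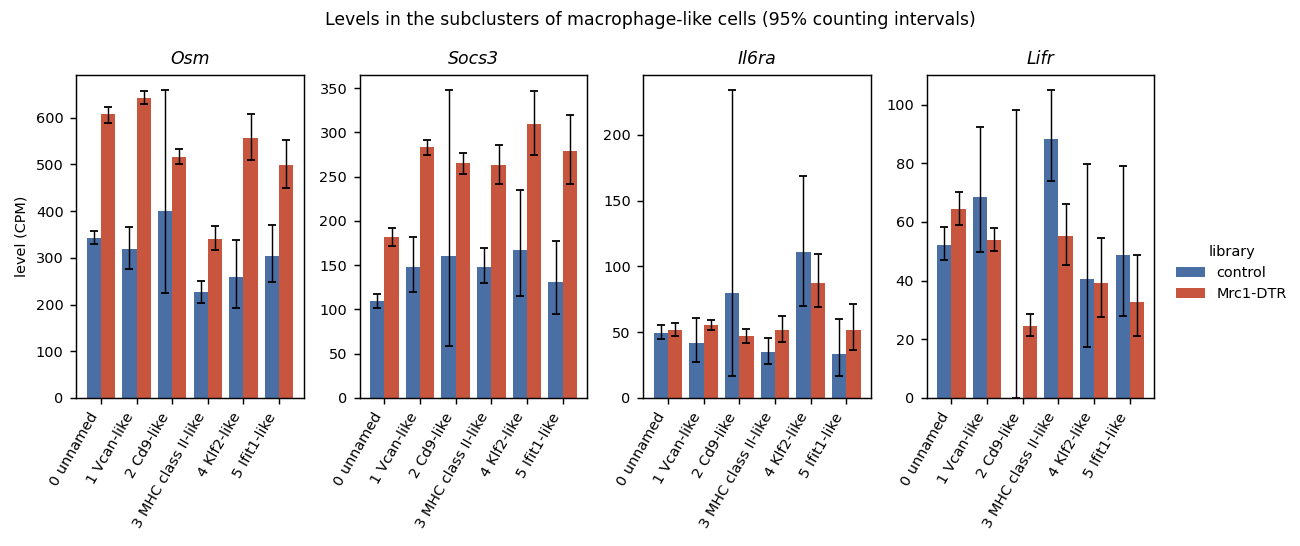
Level (vertical axis, CPM) of Osm, Socs3, Il6ra and Lifr in each macrophage-like subcluster in the control and the Mrc1-DTR library, with 95% Poisson intervals for counting error. Osm lies higher in Mrc1-DTR in all 6 subclusters, from 226 and 341 CPM in MHC class II-like cells to 319 and 643 CPM in Vcan-like cells.

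Set against all genes with at least 50 UMIs in a class, 1.53% of 10252 were at least 2-fold higher and 3.31% at least 2-fold lower in *Mrc1-DTR* macrophage-like cells, and of the 8 members with as many UMIs *Socs3* was past 2-fold, upwards. The median log2 ratio of these 8 was -0.10, and that of all genes 0.06. In fibroblast-like cells 2.67% of 11814 genes were higher and 1.40% lower, and 1 of 9 members, *Osm*, was higher, with medians of 0.20 and 0.12. In epithelial-like cells 2.67% of 10288 were higher and 2.07% lower, and 1 of 9 members, again *Osm*, was higher, with medians of 0.28 and 0.08. Most *Osm* UMIs of both classes in *Mrc1-DTR* lay in mixed subclusters. Without these, *Osm* had 23 and 9 UMIs in epithelial-like cells, too few for this count. In fibroblast-like cells its log2 ratio was then 1.16. In neutrophil-like cells 5.79% of 2797 genes were higher and 4.79% lower, and 1 of 3 members, *Socs3*, was higher. It had 41 UMIs in control and 506 in *Mrc1-DTR*. Counts this small do not set the members apart from other genes.

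A wider list of 44 genes of the pathway (further ligands and receptors, sheddases, kinases and STATs, inhibitors, and targets of STAT3) was also counted. In macrophage-like cells 37 had at least 50 UMIs, with a median log2 ratio of 0.21. Over all genes in these cells the median was 0.06, with 1.53% at least 2-fold higher and 3.31% lower in *Mrc1-DTR*. Of the 37, 5 (13.5%) were at least 2-fold higher and 2 (5.41%) lower. The limit of 50 UMIs is over both libraries together. Of the 5, *Lcn2* had 19 UMIs in control and 338 in *Mrc1-DTR*, so it passed the limit only through the library where it was high. All 5 are on the list of STAT3 targets, which other factors also drive and which went both ways: of its 18 genes measured in these cells, 11 had an interval above 0, 6 below 0 and 1 holding 0. *Lrg1*, a secreted glycoprotein of inflammation, was at 6.83 CPM (63 UMIs) and 59.9 CPM (1897 UMIs), 2.96 (2.64 to 3.29), and *Hp*, the haemoglobin scavenger haptoglobin, at 57.3 and 228 CPM, 1.97 (1.85 to 2.10). *Lcn2*, which withholds iron from bacteria, was at 2.06 and 10.7 CPM, *Saa3*, an acute phase protein, at 78.9 and 218 CPM, and *Timp1*, an inhibitor of metalloproteinases, at 181 and 427 CPM. *Hp* and *Saa3* are among the leading genes of the *Vcan*-like subcluster, which held more of the *Mrc1-DTR* cells, and neutrophil RNA, measured on 10 other genes, was at 854 and 1419 CPM in the class. Neutrophil-like cells held *Lcn2* at 399 and 1055 CPM and *Lrg1* at 295 and 645 CPM, and the part of their RNA in these results was not tested.

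The 2 lower genes were *Serpina3n*, a protease inhibitor that is also on the list of STAT3 targets, at 14.2 CPM (131 UMIs) and 2.12 CPM (67 UMIs), -2.29 (-2.62 to -1.94), and *Ebi3*, a subunit of IL-27 and IL-35, at 29.3 and 11.2 CPM, -1.31 (-1.53 to -1.09). *Serpina3n* was at 1574 and 1049.6 CPM in fibroblast-like cells, and fibroblast RNA was at 963 and 203 CPM in macrophage-like cells, also lower in *Mrc1-DTR*. The part of such RNA in this result was not tested. *Stat3* and *Jak1* were named with *Il11ra1* after their values were seen. In macrophage-like cells *Stat3* was at 213 and 191 CPM, -0.16 (-0.23 to -0.08), and *Jak1* at 135 and 143 CPM, 0.08 (-0.01 to 0.17). Of the 7 kinases and STATs measured there, 0 were past 2-fold. Their intervals lay above 0 for 2, below 0 for 2 and held 0 for 3.

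In fibroblast-like cells 36 of the list had at least 50 UMIs, of which 1 (2.78%) was past 2-fold upwards and 1 (2.78%) downwards, and the median log2 ratio was 0.03. Over all genes in these cells the shares were 2.67% and 1.40%, and the median log2 ratio was 0.12. With 1 gene in each direction, the list is not set apart from other genes. *Hp* was at 52.3 CPM (1832 UMIs) and 178 CPM (1734 UMIs), 1.75 (1.66 to 1.85), and *Stat5b* at 106 and 39.5 CPM, -1.41 (-1.56 to -1.26). *Stat5b* is among the leading genes of the subcluster of 865 control and 78 *Mrc1-DTR* cells. Apart from *Hp*, the targets that were higher in macrophage-like cells were closer to equal here. *Saa3* was at 3084 and 4093 CPM (log2 ratio 0.41) and *Timp1* at 1855 and 2434 CPM (0.39). *Lcn2* and *Lrg1* each had a log2 ratio of 0.60. *Il11ra1*, the receptor of IL-11, was at 356 and 447 CPM, a log2 ratio of 0.33 (0.28 to 0.38).

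**Figure D5:**
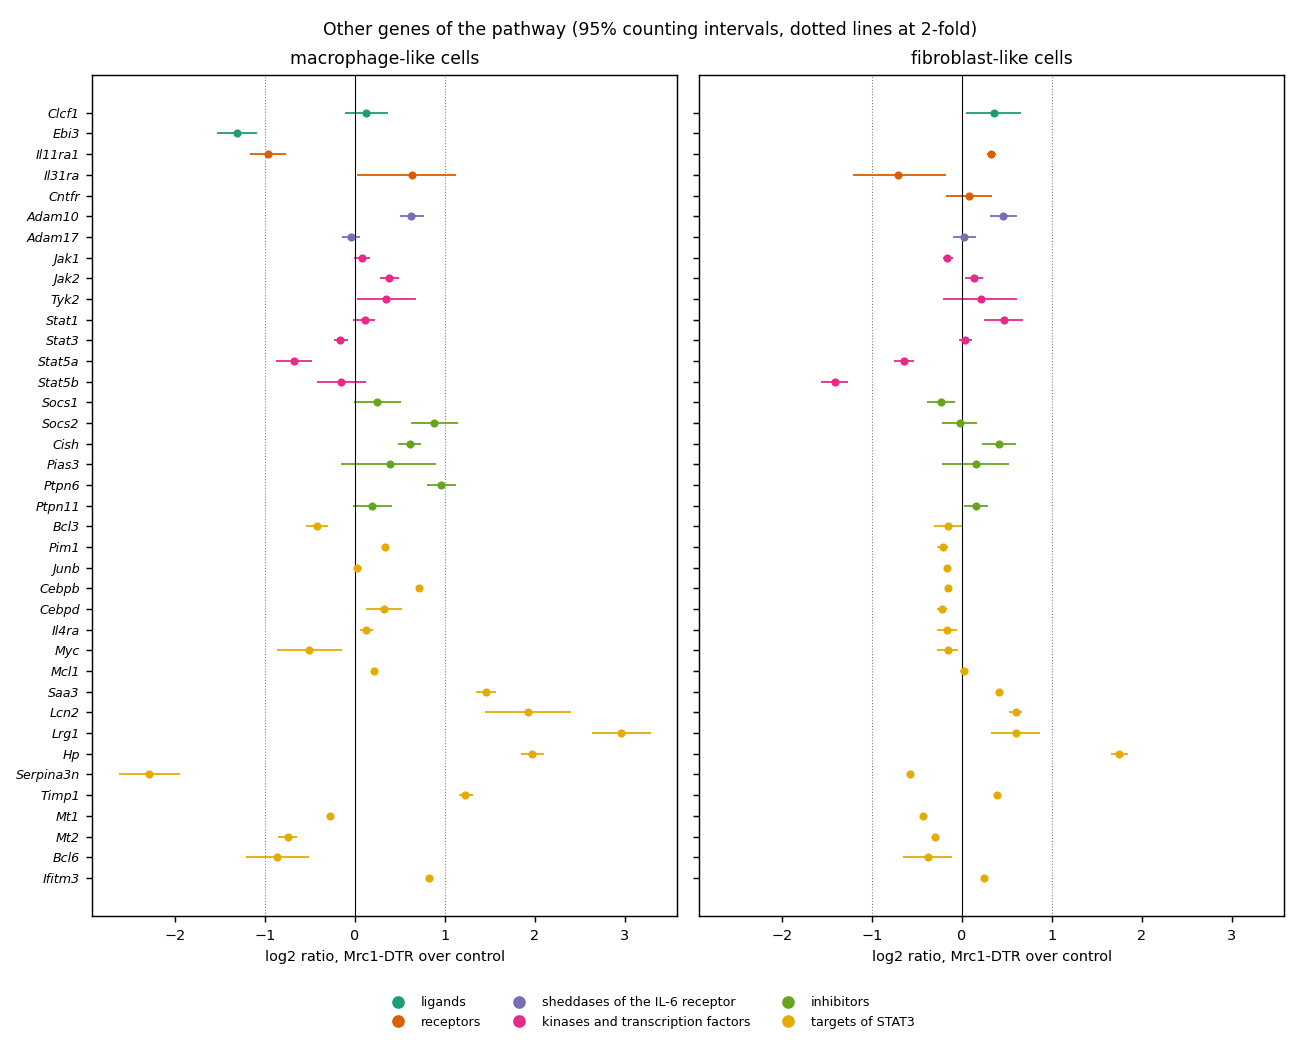
Log2 ratio of Mrc1-DTR over control (horizontal axis) of the wider pathway genes with at least 50 UMIs, grouped by role, in macrophage-like and fibroblast-like cells, with 95% intervals for counting error and dotted lines at 2-fold. The targets Lrg1 (2.96) and Hp (1.97) lie farthest to the right in macrophage-like cells, and Serpina3n (-2.29) farthest to the left.

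Across the 14 pairs of class and library with at least 100 cells, the genes most like *Osm*, by the Pearson correlation of log2(CPM + 1) among 11976 genes, were *Ccl6* (0.98), *Cd14* (0.97) and *Fcgr3* (0.97), genes of myeloid cells. For *Il6* they were *Cxcl5*, *Gpr176* and *Epha3* (0.98 each), for *Il11* *Col4a1*, *Col8a1* and *Daam2* (0.97 each), and for *Osmr* *Tm4sf1* (0.99), *Cdh13* (0.98) and *Atp9a* (0.98). *Il6ra* had no partner as close, with *Riok3* at 0.91 and *Zfp36* and *Atp6v0b* at 0.90. These points share libraries and depth, so the values describe likeness across cell classes only.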

How the data were processed

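Wound cells were captured with 10x Genomics 3′ chemistry, and the authors aligned reads to mm10 and counted UMIs with Cell Ranger (6.1.1 in the processing notes and the matrix headers, another version in the methods). The authors deposited 1 matrix of unnormalised UMI counts per condition, and the 2 technical replicates named in the methods were not separate files. Groups were taken from the treatment labels.

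Barcodes under 500 genes or over 6% mitochondrial UMIs were dropped. Doublets were called per library with Scrublet (scanpy 1.11.5, Python 3.11.15), which removed 382 control cells (4.59%). Its own threshold was not usable in the *Mrc1-DTR* library, where the top 8% of scores, 575 cells, were removed. Both libraries were clustered together without integration in Seurat 5.3.0 (R 4.3.3; 2000 variable genes without the pathway genes, 30 components, resolution 0.2, and 0.3 within classes). Clusters were named from marker lists, with at least 3 markers raised 2-fold, and the treatment of mixed subclusters was set after the clusters were seen.

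UMIs were summed per class and library. Intervals were Poisson for CPM, conditional binomial for ratios and Clopper-Pearson for shares, all exact (scipy 1.17.1, numpy 2.4.6, pandas 2.3.3). Free RNA was estimated as the UMIs of a marker list in a class times the ratio of the gene to that list in the source class. Myocyte-like cells (7 and 11) were not compared. Named genes were the 9 members, pathway genes past 2-fold with at least 50 UMIs in macrophage- or fibroblast-like cells, and the 3 genes most like 5 members among those with at least 200 UMIs. 1 gene of the wider pathway list is not reported here. The log2 ratio, its interval and the 2-fold call were tested on simulated class sums of macrophage-like cells. These sums held counting error only, with no spread between cells, and other steps were not tested in this way. The genes and lists were chosen with earlier results of these data known. Motifs were searched in RefSeq promoters, and gene positions were from GENCODE on GRCm38.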

Additional observations from a re-analysis of the deposited data

Results flagged for a closer look

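For 4 of the genes the log2 ratio of *Mrc1-DTR* over control had opposite signs in different cell classes, with both counting intervals away from 0. With 1 library per condition the differences between classes were not tested. *Il6* was higher in fibroblast-like cells (0.80) and lower in macrophage-like cells (-0.39), and *Il6st* was slightly higher in fibroblast-like (0.08) and lower in macrophage-like cells (-0.24). The macrophage-like *Il6* levels rested on 103 and 262 UMIs, and with subclusters at control shares the ratio was -0.26. Fibroblast RNA in macrophage-like cells was at 963 and 203 CPM, and its part in the *Il6* ratio was not tested. *Osmr* was higher in epithelial-like cells (0.28) and lower in macrophage-like (-0.76), dendritic-like (-1.49) and NK or T-like cells (-2.18), where the levels rested on 35 and 58, 15 and 4, and 11 and 1 UMIs. Fibroblast RNA was also lower in these 3 classes, at 963 and 203, 606 and 116, and 709 and 169 CPM, as was keratinocyte RNA, at 554 and 171, 548 and 151, and 697 and 255 CPM. In control macrophage-like cells the first could give 56.1% and the second 46.8% of the *Osmr* UMIs. *Lifr* was higher in epithelial-like cells (0.57) and lower in macrophage-like (-0.25), dendritic-like (-0.69) and fibroblast-like cells (-0.41). These directions turned under some settings: dendritic-like cells were at 0.30 after thinning, macrophage-like cells at 0.04 with subclusters at control shares and 0.08 with at most 2000 genes per cell, and fibroblast-like cells at 0.03 with that limit. For epithelial-like cells the ratio was 0.37 without the mixed subclusters, with an interval that held 0 (-0.11 to 0.82), and 0.12 at control shares. Endothelial-like cells, 73 and 55 in number, were at 1.27 (0.84 to 1.70).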

How the results depend on the processing

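No paired analysis was possible because each condition had 1 library, and for the same reason no replicate could be left out. Of 171 recomputed values of the 18 main results, 124 kept direction and size, 45 moved and 2 reversed, and of 307 values of 37 further results 276 kept, 26 moved and 5 reversed. Values below are log2 ratios, or percent of a library's UMIs in control and *Mrc1-DTR*, and the cause of each shift was not tested. A limit of at most 2000 genes per cell, which the paper's methods also name, left 2480 cells in each library. Under it 13 of the 18 main results moved, 2 reversed and 3 kept direction and size. *Il6* in fibroblast-like cells was then 1.87, *Lif* 1.50, *Il11* -0.12, *Osmr* 0.13, *Socs3* -0.43 and *Lifr* 0.03. Without the limit *Il11*, *Osmr*, *Socs3* and *Lifr* had the other sign there, with intervals that held 0 for *Osmr* and *Socs3*. The 2 counted as reversed under the limit thus do not hold every change of sign. In macrophage-like cells *Osm* was then 0.79, *Socs3* 0.72, *Il6st* -0.52 and *Lifr* 0.08, and in epithelial-like cells *Socs3* 2.48 and *Osmr* 0.61. Under this limit the epithelial-like values rest on 201 control and only 12 *Mrc1-DTR* cells, and the fibroblast-like values on 544 and 69. Macrophage-like cells then gave 90.1% and 40.5% of *Osm*, a cluster led by *Arg1* and *Chil3* having stayed unnamed, and fibroblast-like cells 84.1% and 67.9% of *Il6*. The macrophage-like share of *Osm* was 80.5% and 90.8% with all variable genes, 73.3% and 86.8% with doublets kept, 80.4% and 90.3% at a mitochondrial limit of 10%, 90.9% and 94.3% after thinning, and 55.8% and 69.9% at resolution 0.5, where macrophage clusters rich in MHC class II took the name Langerhans-like. The fibroblast-like share of *Il6* was 85.5% and 56.7% at the 10% limit, 88.9% and 62.1% after thinning, and 63.6% in *Mrc1-DTR* with doublets kept. *Il6* in fibroblast-like cells was 0.86 with doublets kept, 0.88 as a mean over cells, 0.66 at the 10% limit, 0.90 thinned, and, in alternatives chosen after seeing the data, 0.86 without mixed subclusters and 0.35 at control shares of the subclusters. *Il11* there was 0.43 with doublets kept, 0.38 as a mean over cells and 0.02 at control shares. *Socs3* there was 0.15 with doublets kept, 0.14 at the 10% limit, 0.27 thinned and 0.17 at control shares. As a mean over cells *Osm* in macrophage-like cells was 0.79. At control shares *Socs3* was 0.78 and *Lifr* 0.04 in macrophage-like cells, and *Il6ra* -0.05 in fibroblast-like cells. Thinned, *Socs3* in epithelial-like cells was 0.66, *Il6st* in fibroblast-like cells 0.17, *Lifr* in dendritic-like cells 0.30 and *Lif* in epithelial-like cells -0.56. Mast- and neutrophil-like cells are limited by depth, and mast- (34 and 18), endothelial- (73 and 55) and pericyte-like cells (61 and 113) by their number. Ratios were recomputed only for classes with at least 100 cells in each library. Those of pericyte-, endothelial-, mast- and Langerhans-like cells were thus not checked in this way. No cluster took the pericyte- or endothelial-like name under the limit of 2000 genes per cell.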

Other observations

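Of the wider pathway list, 35 genes had at least 50 UMIs in epithelial-like cells, and 2 (5.71%) were at least 2-fold higher and 2 (5.71%) lower in *Mrc1-DTR* wounds, with a median log2 ratio of 0.27. Over all genes in these cells the shares were 2.67% and 2.07%, and the median log2 ratio was 0.08. These genes were named after their values were seen. *Lcn2*, which withholds iron from bacteria and is made by stressed keratinocytes, was at 32.8 CPM (934 UMIs) in control and 164 CPM (635 UMIs) in *Mrc1-DTR*, a log2 ratio of 2.28 (2.14 to 2.43). *Cntfr*, a receptor chain of ciliary neurotrophic factor, was at 1.12 and 5.15 CPM, 1.53 (0.89 to 2.12). *Saa3* was at 25.5 CPM (726 UMIs) and 5.15 CPM (20 UMIs) and *Serpina3n* at 12.7 CPM (362 UMIs) and 1.80 CPM (7 UMIs), both lower. Fibroblast RNA in these cells was at 787 and 122 CPM, and its part in the result was not tested.

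In neutrophil-like cells 22 genes of the list had at least 50 UMIs, and 3 (13.6%) were higher and 1 (4.55%) lower, against 5.79% and 4.79% of all 2797 genes, so that the lower share was near the background and the higher one rests on 3 genes. *Lcn2*, a granule protein of neutrophils, was at 399 CPM (77 UMIs) and 1055 CPM (1180 UMIs), 1.40 (1.07 to 1.75), and *Lrg1* at 295 and 645 CPM, 1.13 (0.74 to 1.54). *Cish*, an inhibitor of STAT5 signalling, was at 10.4 CPM from 2 UMIs and 64.4 CPM from 72 UMIs, with a wide interval (0.72 to 4.89). It passed the limit of 50 UMIs only through the *Mrc1-DTR* library. *Mt2*, a metallothionein, was at 223 and 59.9 CPM, -1.88 (-2.44 to -1.29).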
